A study of Mus musculus with 2 samples.

Results

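The genes described here are 10 that mark or serve the blood-brain barrier, the sealed and selective wall of the brain's blood vessels: Cldn5, Mfsd2a, Abcb1a, Abcg2, Slco1a4, Slco1c1, Plvap, Slc7a5, Slc7a1 and Slc16a1. They were chosen by symbol from the 55416 genes listed in each count table, and each of the 10 matched 1 gene. They were measured by single-nucleus RNA-seq in frozen whole brain of fetal mice, with 1 library labelled wildtype (WT) and 1 labelled Cav1 knockout (KO), a loss of the gene for caveolin 1, a protein of small pits in the plasma membrane that are common in endothelial cells. The labels give neither strain, day of gestation, sex nor the number of animals per library, and they do not say which part of Cav1 was removed or whether the loss was in all cells. With 1 library per genotype no difference between the genotypes can be tested, so each comparison between the libraries is a comparison of those libraries, and intervals given below are exact 95% intervals that cover counting error only.

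In the brain, capillary endothelial cells are joined by tight junctions, take up few vesicles, and carry transporters that pump drugs out or let nutrients and hormones in. Endothelial cells gain these features during fetal life under Wnt signals from neural progenitors, while genes of leaky vessels such as Plvap are switched off. Cldn5 encodes claudin-5, the main sealing protein of these tight junctions, and Mfsd2a encodes a lipid transporter that limits vesicle traffic. Abcb1a and Abcg2 encode efflux pumps (P-glycoprotein and BCRP), Slco1a4 and Slco1c1 encode organic anion transporters of which the second carries thyroxine, and Plvap encodes a protein of the diaphragms of leaky vessels. Slc7a5 encodes the LAT1 carrier of large neutral amino acids, Slc7a1 the CAT1 carrier of arginine and lysine, and Slc16a1 the MCT1 carrier of lactate and ketone bodies.

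Promoter sequences were at hand from RefSeq for 8 of the 10 genes (mouse build GRCm38.p6, 250 bases before to 50 bases after a listed start, written 5′ to 3′ along the gene). The sequences of 4 genes with 1 listed start each are shown because these 4 stand for the patterns described below: Cldn5 was concentrated in endothelial nuclei, Slco1c1 was high in endothelial and choroid plexus nuclei, its chromosome neighbour Slco1a4 was high in choroid plexus nuclei, and Slc16a1 was high in neither. Capitals mark matches, on either strand, to the letters AGGAAG (a core bound by ETS-family factors), TCAAAG (a core bound by TCF/LEF factors of the Wnt pathway), GGGCGG (the GC box) and TATAAA (the TATA box).
Cldn5 promoter, chr16:18776597-18776896, + strand: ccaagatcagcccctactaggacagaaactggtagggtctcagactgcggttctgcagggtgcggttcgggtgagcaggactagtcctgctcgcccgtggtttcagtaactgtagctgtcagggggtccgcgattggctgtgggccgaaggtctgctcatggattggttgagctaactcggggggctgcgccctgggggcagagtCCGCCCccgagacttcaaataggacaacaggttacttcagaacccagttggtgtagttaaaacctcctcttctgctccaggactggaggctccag
Slco1c1 promoter, chr6:141524104-141524403, + strand: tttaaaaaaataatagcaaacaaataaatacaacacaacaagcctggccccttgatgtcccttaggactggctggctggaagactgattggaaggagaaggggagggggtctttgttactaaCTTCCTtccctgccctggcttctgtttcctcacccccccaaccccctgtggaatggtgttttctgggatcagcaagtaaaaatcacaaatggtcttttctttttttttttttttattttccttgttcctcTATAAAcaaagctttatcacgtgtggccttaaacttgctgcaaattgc
Slco1a4 promoter, chr6:141856171-141856470, - strand: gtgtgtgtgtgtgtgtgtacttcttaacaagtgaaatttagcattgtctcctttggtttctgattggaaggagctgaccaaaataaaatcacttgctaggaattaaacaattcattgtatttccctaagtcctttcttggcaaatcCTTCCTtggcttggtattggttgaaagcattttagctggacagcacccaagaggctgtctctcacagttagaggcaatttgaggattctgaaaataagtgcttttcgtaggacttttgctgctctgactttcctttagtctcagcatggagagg
Slc16a1 promoter, chr3:104638414-104638713, + strand: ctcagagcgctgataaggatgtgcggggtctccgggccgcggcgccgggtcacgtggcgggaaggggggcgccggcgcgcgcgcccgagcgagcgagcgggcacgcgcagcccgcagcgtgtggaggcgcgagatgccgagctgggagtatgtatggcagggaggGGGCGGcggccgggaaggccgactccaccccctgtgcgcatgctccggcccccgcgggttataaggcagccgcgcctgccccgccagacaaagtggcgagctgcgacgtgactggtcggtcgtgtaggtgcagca

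The Slco1c1 and Slco1a4 sequences each held 1 AGGAAG match, 128 and 104 bases before the start. The Cldn5 and Slc16a1 sequences each held 1 GGGCGG match, 45 and 85 bases before the start, and Slco1c1 also held TATAAA starting 3 bases after its start. GC content was 58.3% for Cldn5, 73.7% for Slc16a1, 42.0% for Slco1c1 and 40.7% for Slco1a4. Over the 8 genes and all their listed starts, AGGAAG was found for 4 genes, TCAAAG for 3 (Abcb1a, Mfsd2a and Slc7a1), GGGCGG for 4 and TATAAA for 3. These letters are common, as 35.4% of 32851 promoters of this length held AGGAAG, 16.0% TCAAAG, 35.7% GGGCGG and 13.6% TATAAA. Those shares are per single promoter, while Abcg2 with 3 listed starts and Slc7a1 with 2 had more chances of a match. The TCAAAG and TATAAA matches of Slc7a1 were at 1 of its starts only. A match is a description of letters and not a binding site.

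The WT-labelled library held 9763 barcodes with 19048835 unique molecular identifiers (UMIs, tags that count each captured RNA once), and the KO-labelled library held 10811 barcodes with 22504908 UMIs. Barcodes with at least 500 genes and at most 5% mitochondrial UMIs were kept as nuclei, 6686 with 17205381 UMIs and 6680 with 19878903 UMIs. Endothelial-like nuclei were a cluster named from 12 endothelial marker genes, none of them described here, and numbered 48 in the WT-labelled library (0.718%, 0.530 to 0.951) and 64 in the KO-labelled library (0.958%, 0.739 to 1.22). The 12 markers summed to 5131 and 6800 CPM in these nuclei (a gene's UMIs relative to all UMIs of the group of nuclei, scaled to a common total) against 46.0 and 52.0 CPM in all other nuclei, and none was at 0. Clusters without a name held 16.8% and 22.5% of the nuclei and are among all other nuclei. Of 43 barcodes that the libraries shared as deposited, 10 were kept, and none of those was endothelial-like in either library. Cav1 itself had 17 UMIs in endothelial-like and 54 in other nuclei of the WT-labelled library, against 1 and 79 in the KO-labelled library, so its level separated the libraries in endothelial-like nuclei and not in the rest. The libraries are therefore called WT-labelled and KO-labelled.

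Of the 10 genes, 8 were at least 2-fold higher in endothelial-like than in all other nuclei in each library. Among the 18100 genes with at least 20 UMIs in each library, 7.19% were called higher by this rule and 12% lower. The median log2 ratio of endothelial-like to other nuclei was 5.30 and 5.39 over the 10 genes, against -0.16 and -0.20 over all genes tested, in the WT-labelled and the KO-labelled library. All 10 genes reached the minimum of 20 UMIs in each library, counted over all nuclei. The exceptions were Slco1a4 and Slc16a1.

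**Figure D1:**
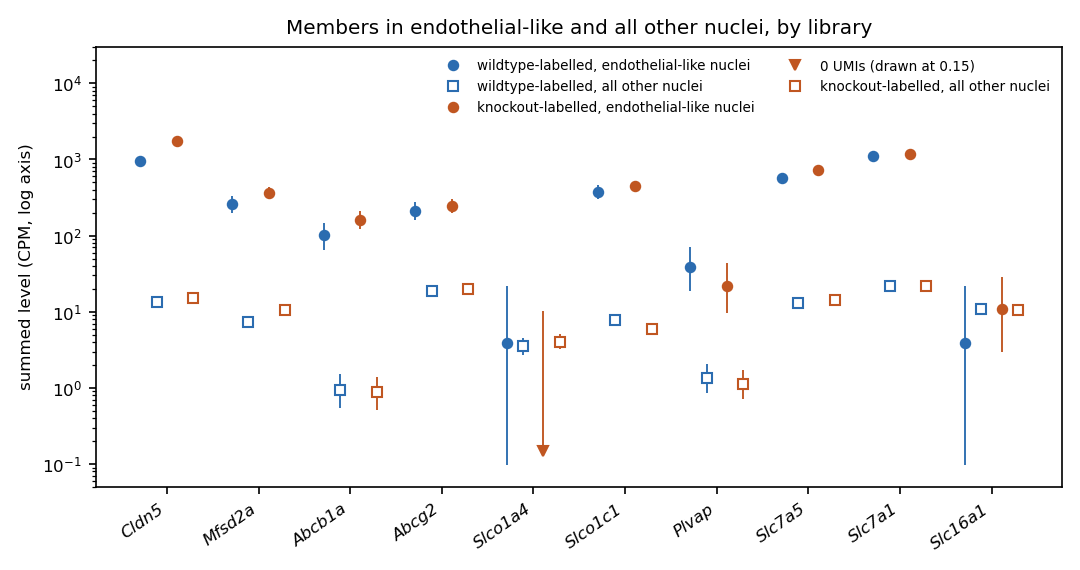
Summed level of each gene in endothelial-like nuclei (filled circles) and all other nuclei (open squares) of the WT-labelled (blue) and KO-labelled (orange) library, in CPM on a log axis with exact 95% Poisson intervals. Filled circles lie above open squares with intervals apart for 8 genes, while for Slco1a4 and Slc16a1 the intervals overlap, and the triangle stands for the 0 UMIs of Slco1a4 in KO-labelled endothelial-like nuclei.

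Cldn5, on chromosome 16 (18595597 to 18597012 on build GRCm39, 1 exon without introns), had 244 UMIs in endothelial-like nuclei and 228 in all others of the WT-labelled library, or 942 against 13.5 CPM. In the KO-labelled library it had 639 and 295 UMIs, or 1761 against 15.1 CPM. Endothelial-like nuclei thus held 51.7% and 68.4% of the gene's UMIs in 0.718% and 0.958% of the nuclei. The log2 ratio of endothelial-like to other nuclei was 6.13 (5.86 to 6.40) and 6.86 (6.66 to 7.07). With other rules for the nuclei these ratios ran from 5.59 to 6.85 and from 5.92 to 7.73, lowest where 3 endothelial markers defined the class and highest where nuclei with high doublet scores were left out. No other named class came near, the next by both libraries together being intermediate progenitor-like nuclei at 21.3 and 23.3 CPM.

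Mfsd2a, the vesicle-limiting lipid transporter on chromosome 4, had 67 endothelial UMIs (259 CPM) in the WT-labelled and 132 (364 CPM) in the KO-labelled library. All other nuclei were at 7.32 and 10.7 CPM, a log2 ratio of 5.14 (4.69 to 5.58) and 5.09 (4.77 to 5.41). Radial glia-like nuclei, the neural stem cells of the fetal brain, came next by both libraries together, at 14.5 CPM (28 UMIs) and 36.2 CPM (68 UMIs), while in the WT-labelled library alone mural-like nuclei were above them at 22.8 CPM from 2 UMIs. The level of radial glia-like nuclei in the KO-labelled library lay outside the interval of the WT-labelled one (9.61 to 20.9 against 28.1 to 45.8 CPM). The radial glia-like class pooled clusters of 228 and 526 nuclei in the WT-labelled and of 295 and 369 in the KO-labelled library. The part of that mix in the difference was not tested.

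Among the efflux pumps, Abcb1a was close to being restricted to endothelial-like nuclei. It had 26 and 59 UMIs there against 16 and 17 in all other nuclei, which is 100.4 and 163 CPM against 0.944 and 0.871 CPM. The log2 ratios were 6.73 (5.78 to 7.73) and 7.54 (6.75 to 8.42), and endothelial-like nuclei held 61.9% and 77.6% of the gene's UMIs. Abcb1b, the second P-glycoprotein gene of the mouse and a close copy of it, had 1 endothelial UMI in each library, and reads shared between the copies leave the split between them uncertain.
Abcg2 was endothelial to a lesser degree. It had 55 and 90 endothelial UMIs (212 and 248 CPM) against 18.6 and 19.9 CPM elsewhere, with log2 ratios of 3.51 (3.07 to 3.93) and 3.64 (3.29 to 3.97). Its next classes were mural-like nuclei at 79.9 and 52.8 CPM, fibroblast-like nuclei at 49.1 and 79.8 CPM and microglia or macrophage-like nuclei at 31.6 and 68.8 CPM, each from 31 UMIs or fewer, and in at least 1 library the endothelial-like and mural-like intervals overlapped.

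The organic anion transporter genes Slco1c1 and Slco1a4 lie 234455 bases apart on chromosome 6 and had different patterns across classes. Slco1c1, the thyroxine carrier, had 97 and 162 endothelial UMIs (374 and 446 CPM) against 7.79 and 5.995 CPM in all other nuclei. The log2 ratios were 5.59 (5.19 to 5.98) and 6.22 (5.87 to 6.57). Choroid plexus epithelium-like nuclei, the cells that make cerebrospinal fluid, were second at 133 CPM (24 UMIs) and 76.5 CPM (15 UMIs), with intervals apart from the endothelial ones and from those of the class below. Radial glia-like nuclei followed at 29.95 CPM (58 UMIs) and 18.1 CPM (34 UMIs).
Slco1a4 had 1 UMI in the 48 WT-labelled and 0 in the 64 KO-labelled endothelial-like nuclei, where a count of 0 allows up to 10.2 CPM by the 95% interval. Its UMIs lay in choroid plexus epithelium-like nuclei, 45 UMIs (249.4 CPM, 182 to 334) in the WT-labelled and 60 UMIs (306 CPM, 234 to 394) in the KO-labelled library, from 45 nuclei each. In the adult mouse Slco1a4 is known as a transporter of brain capillaries. The next class, fibroblast-like nuclei, had 7 and 2 UMIs.

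Plvap, the gene of leaky vessels, had 10 and 8 endothelial UMIs, or 38.6 CPM (18.5 to 71.0) and 22.0 CPM (9.52 to 43.4). All other nuclei were at 1.36 and 1.13 CPM, a log2 ratio of 4.83 (3.60 to 5.96) and 4.29 (2.91 to 5.51). Endothelial-like nuclei were its highest class in each library, but with these counts the intervals overlapped those of the next class in at least 1 library.

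The amino acid carriers were endothelial in each library. Slc7a5 had 146 and 265 endothelial UMIs (564 and 730 CPM) against 12.9 and 14.2 CPM elsewhere, with log2 ratios of 5.45 (5.14 to 5.76) and 5.68 (5.44 to 5.93). Slc7a1 had 285 and 431 endothelial UMIs (1100.2 and 1187 CPM) against 22.1 and 21.9 CPM, with log2 ratios of 5.64 (5.41 to 5.87) and 5.76 (5.57 to 5.96). For each gene, endothelial-like nuclei stood apart from the next class, which by both libraries together was mural-like nuclei, the pericytes and smooth muscle cells of the vessel wall. Mural-like nuclei had 68.4 and 37.7 CPM of Slc7a5 and 103 and 90.5 CPM of Slc7a1, from 5 to 12 UMIs each. For Slc7a1 choroid plexus epithelium-like nuclei, at 44.3 and 91.8 CPM, were level with them in the KO-labelled library.
Slc16a1, the lactate and ketone carrier, had 1 and 4 endothelial UMIs. Its endothelial level of 3.86 CPM (0.0977 to 21.5) and 11.02 CPM (3.00 to 28.2) was not separable at this depth from the 10.9 and 10.6 CPM of all other nuclei. Its highest classes were radial glia-like nuclei (21.2 and 15.4 CPM) and cortical excitatory neuron-like nuclei (16.0 and 16.6 CPM), whose intervals overlapped. In adult and postnatal brain this gene is known as an endothelial one.

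**Figure D2:**
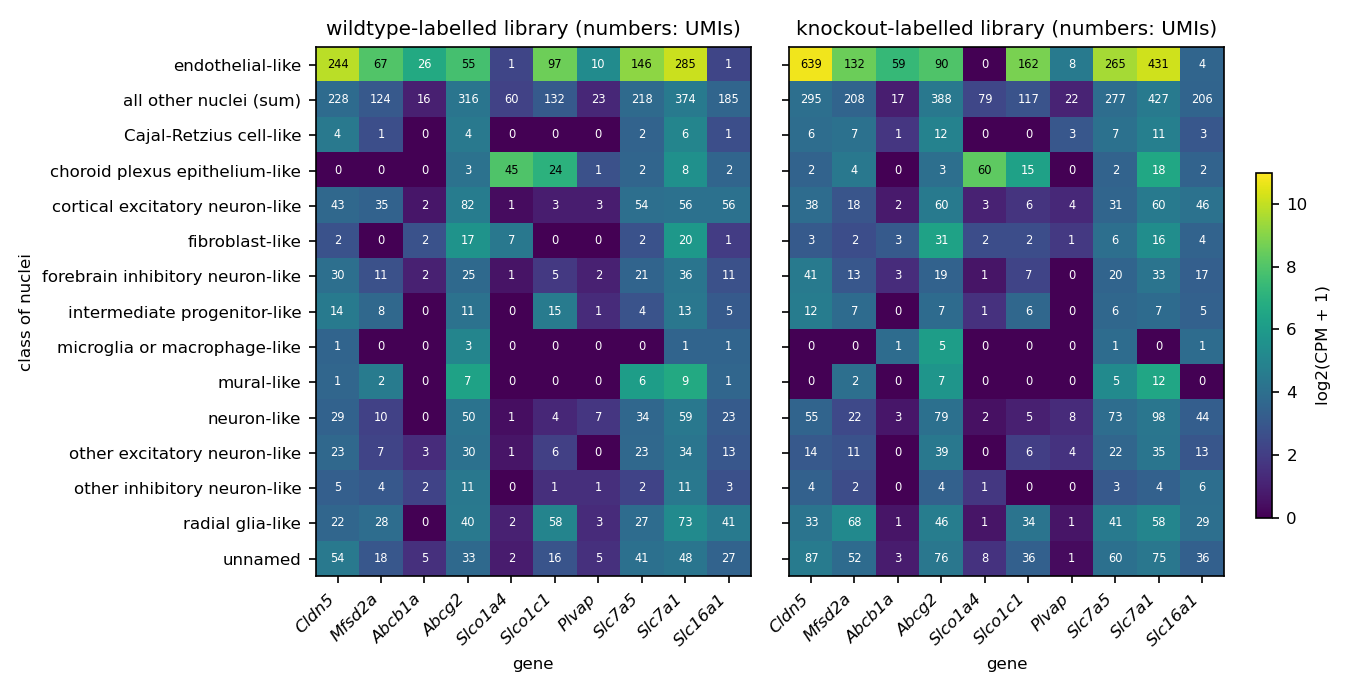
Level of each gene, as log2(CPM + 1) in colour, in each class of nuclei of the WT-labelled (left) and KO-labelled (right) library, with the UMIs printed in each cell. The top row is the endothelial-like class and the row under it the sum of all other nuclei; in choroid plexus epithelium-like nuclei, Slco1a4 and Slco1c1 have 45 and 24 UMIs on the left and 60 and 15 on the right.

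Low counts of these genes were found in most classes, and free RNA in the droplets can give such counts, which was not tested. With each nucleus thinned to 1000 UMIs and shallower ones left out, Cldn5 was detected in 25 of 44 (56.8%) and 45 of 63 (71.4%) endothelial-like nuclei, against 1.53% and 1.71% of cortical excitatory neuron-like nuclei. Without thinning, the shares were 81.3% and 96.9% against 3.14% and 3.85%, at median depths in endothelial-like nuclei of 2915.5 and 3556.5 UMIs. Slco1a4 at equal depth was detected in 11 of 44 (25%) and 9 of 42 (21.4%) choroid plexus epithelium-like nuclei, against 0% and 0.107% of cortical excitatory neuron-like nuclei. Thinned shares of Slc16a1 were 1.30% and 1.28% in those neurons and 1.36% and 1.08% in radial glia-like nuclei.

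Within the endothelial-like class, the median nucleus held a UMI of 4 of the 10 genes in the WT-labelled and 5 in the KO-labelled library. The highest number was 9 in each library, and 1 WT-labelled nucleus held none. Slc7a1 was detected in 83.3% and 93.8% of these nuclei, Slc7a5 in 77.1% and 85.9%, Abcg2 in 54.2% and 64.1%, Mfsd2a in 43.8% and 57.8%, Slco1c1 in 39.6% and 70.3%, and Abcb1a in 33.3% and 45.3%. Each of these shares was higher in the KO-labelled library, in which the nuclei were also deeper. Thinned to 1000 UMIs, Mfsd2a was detected in 34.1% and 23.8% of endothelial-like nuclei, the opposite order, and Slco1c1 in 31.8% and 33.3%. The other thinned shares were 61.4% and 71.4% for Slc7a1, 52.3% and 58.7% for Slc7a5, 15.9% and 25.4% for Abcg2 and 6.82% and 20.6% for Abcb1a.
Plvap was detected in 8 WT-labelled and 6 KO-labelled endothelial-like nuclei. Of those nuclei, 1 of 8 and 6 of 6 also held Mfsd2a, against 50% and 53.4% of the nuclei without Plvap. In the WT-labelled library Slco1c1 (12.5% against 45%), Slc7a5 (50% against 82.5%) and Cldn5 (75% against 82.5%) were also rarer with Plvap. Abcg2 (87.5% against 47.5%), Slc7a1 (87.5% against 82.5%) and Abcb1a (37.5% against 32.5%) were more frequent with it. In the KO-labelled library all of these genes were more frequent with Plvap, except Slco1c1 (66.7% against 70.7%). The nuclei with Plvap were deeper, at medians of 3882 and 7859 UMIs against 2915.5 and 3166, and the part of depth in these shares was not tested.
The UMIs were uneven over nuclei. The 6 and 7 endothelial-like nuclei over 10000 UMIs held 51.1% and 39.6% of all endothelial UMIs, and 1 WT-labelled nucleus held 40 of the 97 Slco1c1 UMIs. Without that nucleus the WT-labelled Slco1c1 level was 234 CPM in place of 374.

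**Figure D3:**
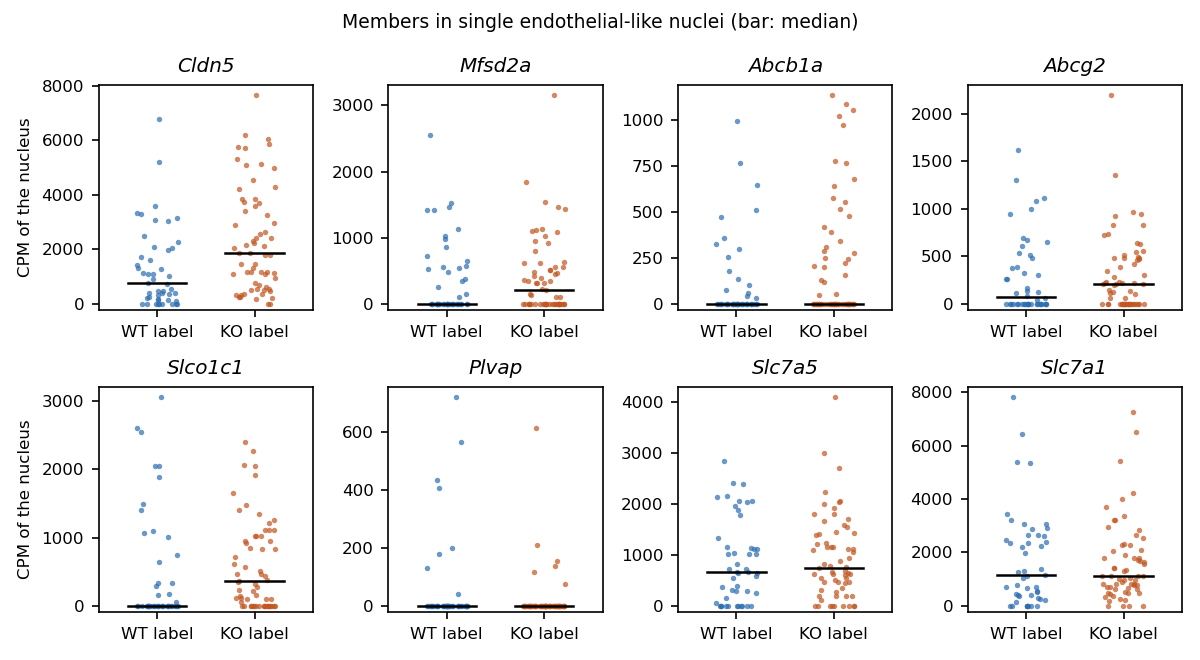
CPM of 8 genes in each endothelial-like nucleus (points) of the WT-labelled (48 nuclei, blue) and KO-labelled (64 nuclei, orange) library, with the median as a bar; sideways scatter is for display. The median for Cldn5 is 741 in the WT-labelled and 1845 in the KO-labelled library with wide overlap of the points, and for Plvap most nuclei of each library are at 0.

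Between the libraries, over all nuclei, 3 of the 10 genes were past 1.5-fold, all higher in the KO-labelled library, and none was past it the other way. Of 21131 genes with at least 20 UMIs over both libraries, 5.87% were past the fold higher and 3.39% lower. Cldn5 had 472 and 934 UMIs in the WT-labelled and KO-labelled library, 27.4 and 47.0 CPM, and stood at a log2 ratio of 0.78 (0.62 to 0.94). Abcb1a, with 42 and 76 UMIs, was at 0.65 (0.08 to 1.23). Mfsd2a, with 191 and 340 UMIs, was at 0.62 (0.36 to 0.89). The other 7 log2 ratios ran from -0.35 for Plvap, with an interval of -1.11 to 0.41, to 0.37 for Slc7a5, with an interval of 0.17 to 0.56. The share of endothelial-like nuclei was itself higher in the KO-labelled library (0.958% against 0.718%), and in sums over all nuclei more nuclei of a type and more RNA per nucleus cannot be told apart.

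Within endothelial-like nuclei, 8 genes had at least 10 UMIs over both libraries. Of these, 2 were past 1.5-fold higher in the KO-labelled library and 1 lower, beside 16.2% of 9606 genes higher and 16.8% lower. Cldn5 stood at 942 and 1761 CPM, a log2 ratio of 0.90 (0.69 to 1.12). Abcb1a stood at 100.4 and 163 CPM, a log2 ratio of 0.70 (0.01 to 1.42). Plvap was the gene past the fold the other way, at -0.81 (-2.35 to 0.68) from 10 and 8 UMIs, which is not separable from no difference at this depth. Mfsd2a (0.49), Slc7a5 (0.37), Slco1c1 (0.25), Abcg2 (0.22) and Slc7a1 (0.11) were not past the fold, and of these the intervals of Mfsd2a (0.06 to 0.94) and Slc7a5 (0.08 to 0.67) did not include 0. The Slco1c1 ratio hangs on the nucleus with 40 UMIs. Without the nucleus richest in the gene in each library, Slco1c1 stood at 234 and 423 CPM. That is a log2 ratio of 0.85 (0.40 to 1.32), past the fold. It was the highest of 15 alternatives, whose lowest was -0.15, and 3 of them had the other sign. With the mean of single nuclei the Slco1c1 ratio was 0.30. Without the nuclei over 10000 UMIs, Cldn5 was at 0.83 (0.57 to 1.09) and Abcb1a at 0.50 (-0.38 to 1.43), no longer past the fold. In that setting the interval of Slc7a5 ran from -0.33 to 0.35 and Slc7a1 was at -0.30 (-0.54 to -0.05), so its direction turned.
The summed level of the 12 endothelial markers was also higher in KO-labelled endothelial-like nuclei, by 1.33-fold (log2 0.41), with single markers from -0.44 for Emcn to 0.85 for Esam. Relative to these markers, the log2 ratio of Cldn5 was 0.50 and that of Abcb1a 0.29, and neither was past 1.5-fold. When every nucleus with at least 3 of the 12 markers was taken as endothelial (63 and 80 nuclei), the ratios were 0.54 and 0.29, again not past it. Markers of other classes also differed within these nuclei: 8 erythroid markers summed to 876 and 3482 CPM, 9 mural markers to 235 and 595 CPM, and 10 neuron markers to 2243 and 2028 CPM. Lower sums in the KO-labelled library were also those of 8 fibroblast markers (401 and 187 CPM), 8 forebrain inhibitory neuron markers (359 and 157 CPM) and 7 cortical excitatory neuron markers (533 and 347 CPM). Of the erythroid, mural and neuron lists, 1 and 2 erythroid, 2 and 0 mural and no neuron markers were at 0. Of the haemoglobin UMIs in KO-labelled endothelial-like nuclei, 49.9% came from 1 nucleus. The part of these other RNAs in the ratios was not tested, except that leaving haemoglobin and mitochondrial UMIs out of the totals left Cldn5 and Abcb1a past the fold.

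In all other nuclei none of the 10 genes was past 1.5-fold in either direction, beside 5.68% of 21025 genes higher and 3.44% lower. Mfsd2a was nearest, at 0.54 (0.21 to 0.88) on the log2 scale from 124 and 208 UMIs. Slco1c1 was at -0.38 (-0.75 to -0.01) from 132 and 117 UMIs. Cldn5, with 228 and 295 UMIs, was at 0.17 (-0.09 to 0.42), while the other genes lay between -0.27 and 0.19.

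**Figure D4:**
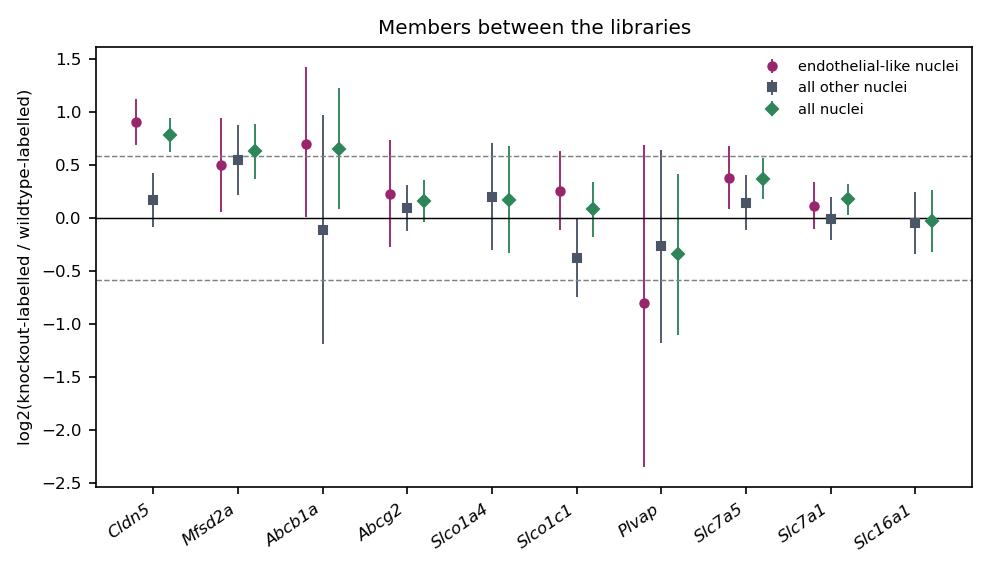
Log2 ratio of the KO-labelled to the WT-labelled library for each gene in endothelial-like nuclei (circles), all other nuclei (squares) and all nuclei (diamonds), with exact 95% intervals for counting error; dashed lines mark 1.5-fold, and ratios of Slco1a4 and Slc16a1 in endothelial-like nuclei are not drawn for want of UMIs. Cldn5 in endothelial-like nuclei (0.90) lies wholly above the upper dashed line, while the interval of Plvap there runs from -2.35 to 0.68.

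Genes of the same pathways were read from 4 lists by the same rule, which called 7.19% of all 18100 genes tested higher and 12% lower. Of 9 tight junction genes, 6 were at least 2-fold higher in endothelial-like nuclei in each library (among them Ocln, F11r and Lsr) and 1 was lower. Ocln, which encodes the junction protein occludin, had 22 and 37 endothelial UMIs and log2 ratios of 5.28 and 4.94. F11r, which encodes the adhesion molecule JAM-A, was at 5.78 and 6.12, and Lsr, a gene of tricellular junctions, at 3.75 and 4.44. The gene called lower, Cgn, which encodes the junction adaptor cingulin, had 1 and 2 endothelial UMIs, with intervals that include 0 in each library (-6.50 to 1.31 and -4.13 to 0.79). The list's median log2 ratio was 2.71 and 2.27.

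Of 14 genes of Wnt signalling and its targets in brain endothelium, 10 were higher and none lower, with medians of 2.13 and 2.46. Sox17, an endothelial transcription factor gene, had 23 and 29 endothelial UMIs against 9 and 17 in all other nuclei, log2 ratios of 7.39 (6.22 to 8.68) and 6.52 (5.61 to 7.48). Apcdd1, a Wnt-induced inhibitor, was at 3.65 and 4.25 with 144 and 288 endothelial UMIs. The forkhead factor genes Foxf2 and Foxq1 were at 4.56 and 5.26 and at 4.45 and 5.16, and the receptor gene Fzd4 at 3.89 and 4.31, from 5 to 20 UMIs each. The 4 genes not called were Lrp6, Tspan12, Reck and Axin2, with Axin2, a general Wnt target, at 0.35 and 0.52.

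Of 18 other transporters, 16 had enough UMIs, 9 were higher and 1 was called lower, with medians of 1.98 and 2.47. Slc2a1, which encodes the barrier's glucose carrier GLUT1, had 136 and 354 endothelial UMIs and log2 ratios of 5.03 (4.72 to 5.33) and 6.103 (5.87 to 6.33). Slc38a5, a glutamine carrier gene, was at 5.85 and 6.95, Slco2b1 at 5.93 and 6.17, and Slc22a8, an organic anion carrier gene, at 4.32 and 5.05. Slc3a2, which encodes the heavy chain that partners LAT1 (Slc7a5), was at 2.27 and 3.20. Slc2a3, the glucose carrier gene of neurons, was at -0.42 and -0.41. The gene called lower, the lactate carrier Slc16a3, had 0 endothelial UMIs in each library and 38 and 60 in all other nuclei, so its ratio has no lower bound and its upper bounds were 2.74 and 1.77.
Of 6 endocytic receptor genes, 3 were higher: Tfrc, which encodes the transferrin receptor used for iron uptake, at 2.89 (2.52 to 3.24) and 3.48 (3.22 to 3.73), Insr at 1.49 and 1.62, and Lrp8 at 1.95 and 2.45. Lrp1, a scavenger receptor gene, was at -0.32 and -0.72.

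**Figure D5:**
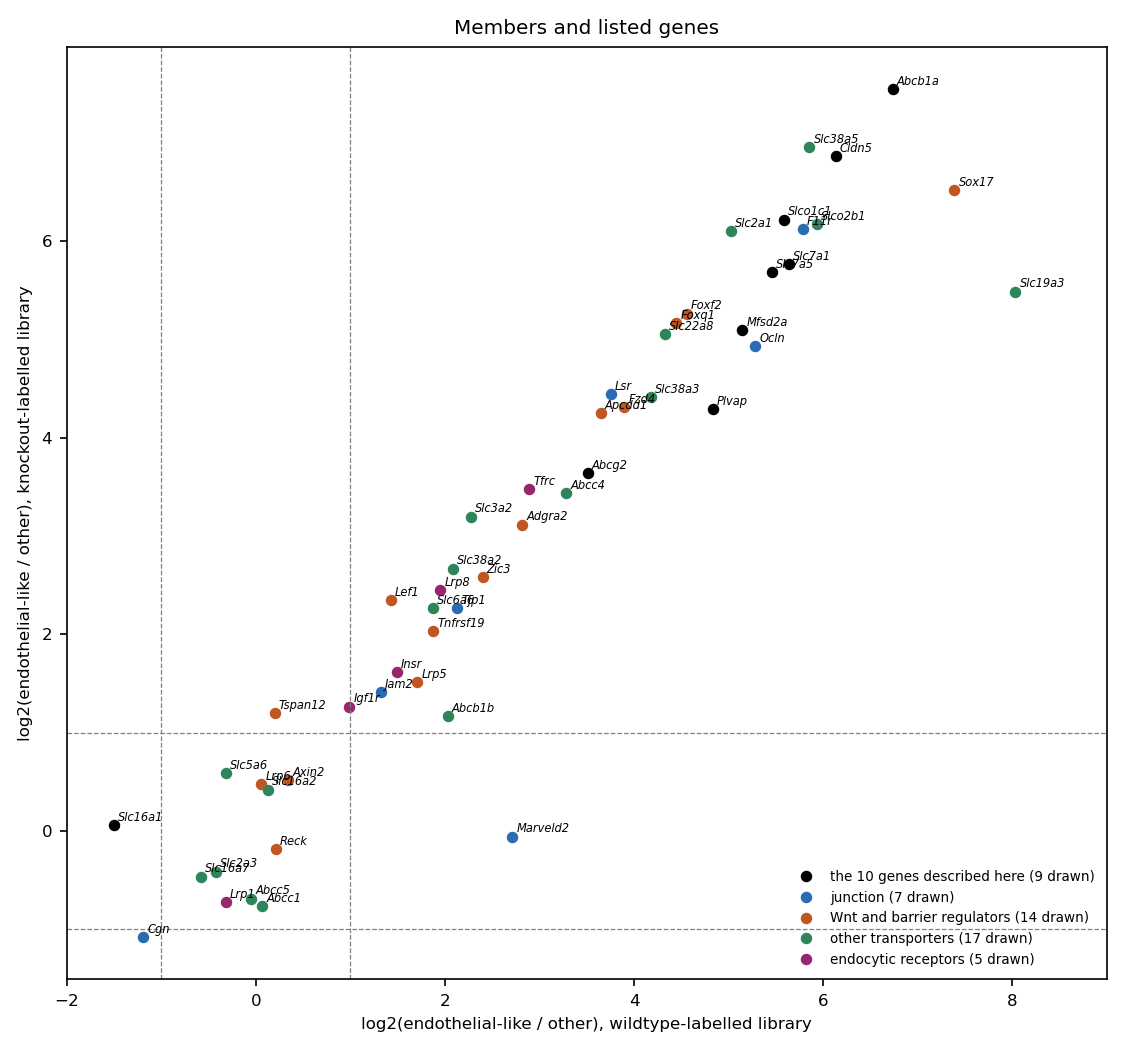
Log2 ratio of endothelial-like to all other nuclei in the WT-labelled (horizontal) and KO-labelled (vertical) library for the 10 genes described here and 4 lists; dashed lines mark 2-fold, and genes with 0 endothelial UMIs in a library or not reported singly are not drawn. Genes under the minimum of 20 UMIs in a library (Slc19a3 and Abcb1b) are drawn but were not counted, and Cgn is the drawn gene at least 2-fold lower in each library.

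In endothelial-like nuclei, 5 of the 14 transporter genes with enough UMIs were past 1.5-fold higher in the KO-labelled library and 2 lower. The 5 were Slc22a8, at a log2 ratio of 1.10 (0.23 to 2.05), Slc38a5, at 1.09 (0.54 to 1.66), Slc3a2, at 1.07 (0.65 to 1.51), Slc2a1, at 0.89 (0.60 to 1.19), and Slc38a2, at 0.66 (0.45 to 0.87). The 2 lower were Abcc1 (7 and 6 UMIs) and Abcc5 (44 and 41 UMIs), with intervals that include 0. Among the junction genes 1 of 6 was past the fold (Lsr, higher), among the Wnt genes 2 of 14 were higher (Tspan12 and Foxf2) and 1 lower (Lrp5), and among the endocytic receptors 1 of 6 was higher (Tfrc, 0.63). The intervals of Lsr (21 and 49 UMIs), Tspan12 (7 and 20), Foxf2 (9 and 20) and Lrp5 (20 and 18) include 0. That of Tfrc (0.22 to 1.05) does not. The background is the 16.2% and 16.8% given above, and the summed endothelial markers were 0.41 higher on the same scale.

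The genes most like each member were sought over 24 points, 12 classes in each of 2 libraries, as Pearson's r of log2(CPM + 10), a description whose points share libraries and depth. For Cldn5 they were Vwf, Adgrl4 and Cd93 (r of 0.98, 0.98 and 0.97), for Mfsd2a Pecam1, Egfl7 and Kdr (0.94, 0.93 and 0.93), and for Slc7a5 Slc40a1, Gm27201 and Erg (0.97, 0.96 and 0.96). Pecam1, Egfl7, Kdr and Erg are among the 12 markers that named the endothelial-like class. Their likeness to genes high in that class is therefore not independent of the naming. For a gene concentrated in a class, as Cldn5 and Slco1a4 were, r rests largely on the points of that class. A high r then says little beyond high levels in the same class. For Slco1c1 they were Cmtm8, Ccdc141 and Abcc4 (0.95, 0.92 and 0.91). For Slco1a4 they were Cdh3, 2010001K21Rik and Fam81b (0.98, 0.97 and 0.97), and Slco1a4 had an r of 0.42 with Slco1c1 and -0.19 with Cldn5. For Slc16a1 no gene was above 0.68 (Akap8).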

How the data were processed

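UMI counts per gene and barcode were deposited by the authors as filtered 10x matrices (3′ chemistry v3.1), whose header lines, per the file headers, name Cell Ranger 6.1.1; the submitters' processing notes name Cell Ranger 3.0.1, STAR and GRCm39. The annotation, intron counting and use of strand are not given in the sources used here, so counts of overlapping genes on opposite strands (Mfsd2a, Abcb1a, Abcg2 and Plvap overlap 1 such gene each) are uncertain. Gene positions are from GENCODE M39 on GRCm39, matched by identifier for 54749 of 55416 genes (98.8%).

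Nuclei with at least 500 genes and at most 5% mitochondrial UMIs were scaled to 10000 UMIs, log-transformed and clustered together with scanpy 1.11.5 (2000 variable genes, 30 principal components, 15 neighbours, Leiden resolution 1), with the 10 genes, the 4 lists and Cav1 left out of the variable genes. Of 26 clusters, those with at least 3 markers of a list 2-fold higher pooled and 1.5-fold higher in each library could be named. A name was refused where another list had more markers among the 10 leading genes, and erythroid needed at least 50% haemoglobin UMIs. Clusters still unnamed became neuron-like with at least 3 neuron markers 2-fold above the named classes other than neurons and intermediate progenitors. They also needed no marker of another list among the leading genes and a median depth at most 3 times the library's. This gave 13 classes, and the rest stayed unnamed (1123 and 1505 nuclei). The thresholds were set after clusters were seen, and the names are not the authors' annotation. Doublets were left in, since Scrublet's threshold marked 0 nuclei in each library, and removing the 8% with the highest scores was an alternative. Under that alternative endothelial-like nuclei numbered 34 and 42 in place of 48 and 64. Nuclei over 10000 UMIs were 12.5% and 10.9% of endothelial-like nuclei, against 0.979% and 2.06% of all other nuclei. Whether some endothelial-like nuclei are mixed with other cells was not tested. UMIs were summed per library and class and given as CPM of that sum. Intervals are exact (Poisson for levels, conditional binomial for ratios and Clopper-Pearson for shares, 95%). Genes needed 20 UMIs in each library for endothelial-like against other nuclei, 20 over both libraries for all or other nuclei, and 10 over both for endothelial-like nuclei. The genes named are the 10, those of the lists (2 listed genes count in their lists but are not reported singly here), and the 3 most like each member among genes with at least 100 UMIs. The interval and ratio code was tested on simulated Poisson counts without variation between nuclei. That test cannot show how the intervals behave where UMIs are uneven over nuclei. The members and lists were chosen with earlier results of these data known. No sample was left out.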

Additional observations from a re-analysis of the deposited data

Results flagged for a closer look

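Cldn5 had a signal in the barcodes left out for few genes or a high mitochondrial share. It had 143 UMIs in 3077 such barcodes of the WT-labelled library and 307 UMIs in 4131 of the KO-labelled library, 77.6 and 117 CPM of their UMIs against 27.4 and 47.0 CPM in kept nuclei. These UMIs were 23.3% and 24.7% of all Cldn5 UMIs deposited. Over all genes, the barcodes left out held 1843454 of 19048835 and 2626005 of 22504908 UMIs. Slc7a5 was also higher there, at 38.0 and 54.1 CPM against 21.2 and 27.3 CPM in kept nuclei. Mfsd2a, Slc16a1 and Plvap were likewise higher there in each library, while Abcg2 and Slc7a1 were lower in each. The remaining genes differed in direction between the libraries.

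Abcb1a went in opposite directions between the libraries in the 2 sets of nuclei, with a log2 ratio of KO-labelled to WT-labelled of 0.70 in endothelial-like and -0.12 in all other nuclei. The difference was not tested. The second value rests on 16 and 17 UMIs and changed sign in 4 of 12 alternatives.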

How the results depend on the processing

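The count of 8 of 10 genes higher in endothelial-like nuclei kept within 1.5-fold of its value under every alternative run. So did the pooled count of listed genes in that comparison, taken over all lists together. The count of 3 between the libraries over all nuclei also did, and no value past its fold changed sign. Counts of the separate lists, and list counts between the libraries in endothelial-like nuclei, were not rerun, so their stability was not tested. In endothelial-like nuclei the count of 3 past the fold was 1 (Plvap) with endothelial-like nuclei taken as those with at least 3 markers, and 1 when scaled by the endothelial markers. In all other nuclei the count of 0 was 1 (Mfsd2a) at resolution 0.5. The cause was not tested. The log2 ratio of Cldn5 between the libraries ran from 0.50 to 1.14 over 15 alternatives in endothelial-like nuclei, and from 0.62 to 0.93 over 12 in all nuclei. For Abcb1a in endothelial-like nuclei it ran from 0.29 to 1.90, for Plvap from -2.84 to -0.57, and for Mfsd2a from -0.52, after thinning to 1000 UMIs, to 0.76. Over all nuclei Mfsd2a ran from 0.40 to 0.63 and was under the fold in 3 of 12. Slc7a1 in endothelial-like nuclei was at 0.11 and changed sign in 5 of 15 alternatives. The endothelial-like to other ratios of the 8 genes moved by over 1.5-fold in at least 1 library and none fell under 2.87 on the log2 scale (Abcg2). Leaving out nuclei over 10000 UMIs, scaling by endothelial markers, the mean of single nuclei and leaving out the nucleus richest in a gene were chosen after seeing the data. The 48 and 64 endothelial-like nuclei limit the depth, at 10 and 8 UMIs for Plvap and 1 and 0 for Slco1a4. No paired analysis was possible because each genotype has 1 library, and for the same reason no replicate could be left out.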
